A study of Mus musculus with 12 samples.

Results

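Lysosomal genes were examined in bulk RNA-seq of the mouse hippocampus in a model of amyloid-β deposition with and without Trem2. The set holds 31 genes for lysosomal membrane proteins, hydrolases and their partners, cathepsins left out, chosen by name as the rows of the deposited count table whose Ensembl identifier maps to a listed symbol. All 31 were found among the 56980 gene identifiers of the table, and all 31 passed the filter on low counts that left 19152 genes for testing.

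The study asked how hippocampal transcripts change as amyloid deposits form and how the lack of Trem2, a receptor that microglia use to sense lipids and amyloid, alters that response. It compared 4 groups of 3 male mice, 1 library per mouse: AppNL-G-F mice with Trem2 knocked out at 9 months, AppNL-G-F mice at 9 months, the Trem2 knockouts at 3 months and AppNL-G-F mice at 3 months. They are called Trem2-KO and App-KI here. Both genotypes carry the AppNL-G-F allele, a knock-in of a humanized amyloid-β sequence with familial Alzheimer's disease mutations that is expressed from the mouse's own App gene, and no group without it is compared here, so a difference between 9 and 3 months holds age and deposition together. The labels do not say which part of Trem2 was removed.

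Lysosomes are acidic organelles in which hydrolases take apart proteins, glycans and lipids that arrive by endocytosis, phagocytosis and autophagy. A proton pump, the V-ATPase, acidifies them, heavily glycosylated membrane proteins line and shield them, and the transcription factor TFEB raises many of their genes together. Microglia, the phagocytes of the brain, hold abundant lysosomes and gather around amyloid plaques, while neurons and astrocytes express many of the same genes. Loss-of-function mutations in many of the hydrolases cause lysosomal storage diseases.

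Total counts ran from 14627892 to 24594655 per library, and the upper limit that 0 counts leave (3 counts) was 0.122 to 0.206 CPM, that is counts scaled by library size and composition. Trem2 averaged 3.74 ± 0.11 CPM in Trem2-KO and 52.7 ± 2.90 CPM in App-KI at 9 months, and 1.98 ± 0.17 CPM in Trem2-KO and 9.19 ± 1.15 CPM in App-KI at 3 months (SD, n = 3 each). App lay between 1190 ± 34.6 and 1226 ± 41.9 CPM in all 4 groups. Hippocampal neuron markers (Prox1, Wfs1, Grik4 and Neurod6) summed to 464 to 504 CPM in Trem2-KO and 463 to 503 CPM in App-KI at 9 months, against 581 to 597 CPM in Trem2-KO and 549 to 580 CPM in App-KI at 3 months. A sum over 9 choroid plexus markers varied far more. It was lowest in 3 libraries, 1 each of Trem2-KO at 9 months, App-KI at 9 months and App-KI at 3 months. These held 78.3, 50.8 and 61.8 CPM, while the other 9 held 448 to 3138 CPM. The highest sums, 3138 and 2478 CPM, were those of Trem2-KO replicates 1 and 2 at 9 months.

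Differences are log2 fold changes with their standard error from edgeR's quasi-likelihood test over all 12 libraries. A gene was called where its p-value, adjusted by the Benjamini-Hochberg procedure over all 19152 tested genes, was below 0.05. All genes together moved little: the median log2 fold change over tested genes lay between -0.00 and 0.01 in each comparison.

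Upstream sequences of 6 of the genes show the letters that regulators of lysosomal and myeloid genes are known to bind. TFEB and its relatives bind an E-box, searched here as TCACGTG, and ETS factors of myeloid cells such as PU.1 bind around a core searched here as GAGGAA. The name ETS core letters means these 6 letters alone, and other forms of ETS site or of E-box were not searched. Cd68, Laptm5 and Grn are printed as 3 of the 4 genes that were lower in Trem2-KO at 9 months and hold the ETS core letters. Hexa, Gusb and Creg1 were lower too and hold neither of the searched strings. Lamp1 and Mcoln1 hold the most copies of the E-box letters and were not called between the genotypes at either age, and Naglu because its libraries did not overlap between the genotypes at 3 months, a difference that edgeR did not call. Each run is 100 bases from the RefSeq promoter table (mouse build GRCm38.p6), read 5′ to 3′ on the strand of the gene, with matches on either strand in capitals; a match on the other strand appears as the reverse complement (CACGTGA or TTCCTC).
Cd68 (chr11:69666321-69666420, minus strand, ETS core): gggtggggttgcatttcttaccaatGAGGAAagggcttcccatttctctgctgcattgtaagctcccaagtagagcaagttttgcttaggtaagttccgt
Laptm5 (chr4:130913216-130913315, plus strand, ETS core): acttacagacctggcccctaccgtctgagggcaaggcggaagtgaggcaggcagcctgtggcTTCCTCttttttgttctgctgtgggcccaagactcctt
Grn (chr11:102430307-102430406, plus strand, ETS core): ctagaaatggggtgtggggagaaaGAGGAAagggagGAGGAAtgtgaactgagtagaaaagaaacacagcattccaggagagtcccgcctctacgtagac
Lamp1 (chr8:13159061-13159160, plus strand, E-box): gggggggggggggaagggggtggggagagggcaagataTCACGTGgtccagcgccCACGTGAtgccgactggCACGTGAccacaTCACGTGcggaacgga
Naglu (chr11:101069994-101070093, plus strand, E-box): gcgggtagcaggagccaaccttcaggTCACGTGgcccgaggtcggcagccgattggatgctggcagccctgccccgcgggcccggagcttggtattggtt
Mcoln1 (chr8:3500419-3500518, plus strand, E-box): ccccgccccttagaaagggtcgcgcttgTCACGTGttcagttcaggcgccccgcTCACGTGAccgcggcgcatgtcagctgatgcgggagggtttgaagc

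The table held a promoter for 29 of the 31 genes; Asah1 and Npc1 were not matched. Over the 250 bases before each start and both strands, the E-box letters stood in 8 of the 29 (27.6%), namely Atp6v1a, Gaa, Glb1, Lamp1, Lgmn, Mcoln1, Naglu and Sgsh, against 968 of 27025 promoters of all genes (3.58%). Lamp1 held 4 copies and Mcoln1 held 3, of which a pair in Mcoln1 overlaps as the palindrome TCACGTGA. The shorter ETS core letters stood in 11 of the 29 (37.9%), against 6986 of 27025 promoters (25.9%). Among the 7 genes lower in Trem2-KO at 9 months, 4 held the ETS core letters (Cd68, Grn, Laptm5 and Man2b1) and 0 held the E-box letters. Among the 22 other genes with a promoter, 7 held the ETS core letters and 8 the E-box letters. These are matches of letters, and binding was not measured.

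**Figure D1:**
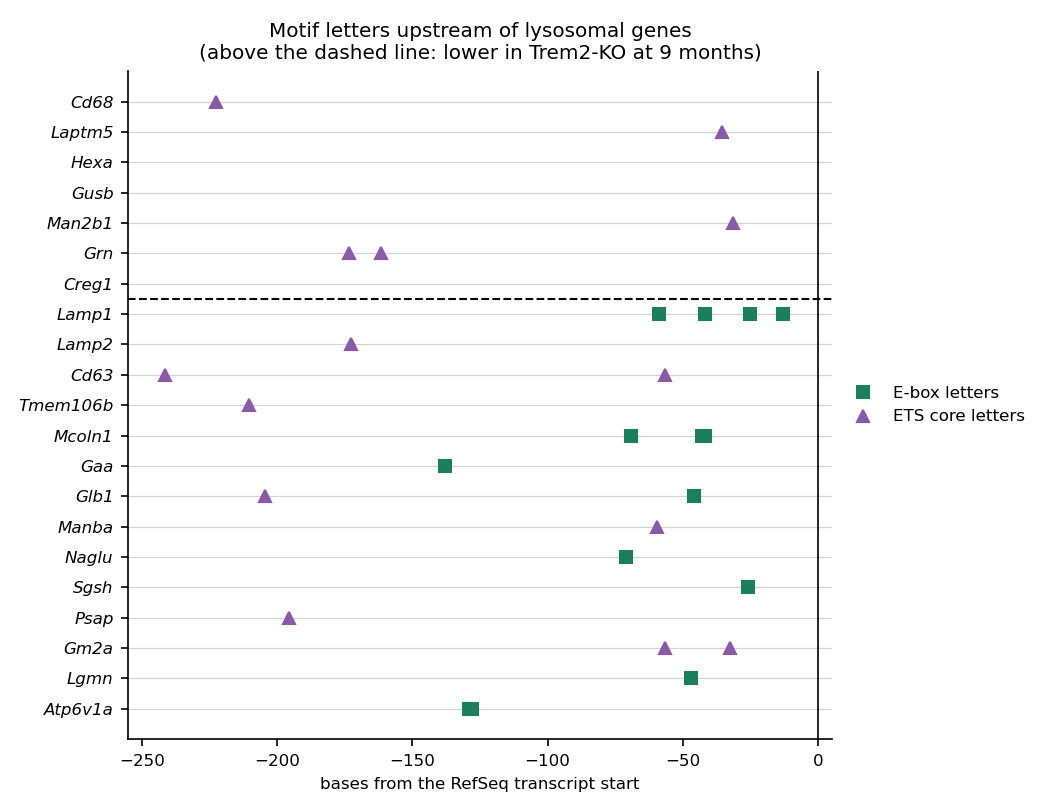
Position of each match of the searched letters in the 250 bases before the RefSeq transcript start (x axis, bases from the start), for the 7 genes lower in Trem2-KO at 9 months (above the dashed line) and every other gene of the set with a match (below it). Squares are E-box letters, which 3.58% of all promoters hold, and triangles ETS core letters, which 25.9% hold. No square stands above the dashed line.

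At 9 months, 7 of the 31 lysosomal genes were lower in Trem2-KO than in App-KI and 0 were higher. Over all tested genes, 2.08% were called in this comparison, 1.39% lower and 0.684% higher. The 7 were Cd68 and Laptm5 among membrane proteins, Hexa, Gusb and Man2b1 among glycan hydrolases, and Grn and Creg1 among the luminal glycoproteins. Both edgeR and DESeq2 called 0 of the 5 lipid genes, where 1 (Npc2) was lower at an unadjusted p below 0.05, and 0 of the 4 genes of the proton pump and its regulator, where 0 reached that level. The median difference over the 31 was -0.05 on the log2 scale, with 17 negative and 14 positive values. Their summed level was 6116 to 6672 CPM in Trem2-KO and 6329 to 6671 CPM in App-KI.

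Cd68, a glycosylated lysosomal membrane protein of phagocytes, differed most of the 31. It had 17.6, 20.4 and 17.4 CPM in Trem2-KO, against 40.3, 42.6 and 38.2 CPM in App-KI. Every Trem2-KO library lay below every App-KI library, and Cd68 fell by 54.2% (log2 fold change -1.13 ± 0.10, adjusted p = 3.29e-07). Laptm5, a membrane protein of the lysosomes of blood and myeloid cells, microglia included, had 75.1, 89.8 and 81.7 CPM in Trem2-KO, against 144, 148 and 147 CPM in App-KI. Its groups did not overlap either (-0.83 ± 0.06, adjusted p = 4.72e-08). Both are printed above with ETS core letters upstream, which 25.9% of all promoters hold. The part of these letters in the differences was not tested.

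The other 7 membrane proteins were not called. Lamp1, the main structural glycoprotein of the lysosomal membrane, had 483, 515 and 475 CPM in Trem2-KO and 527, 503 and 518 CPM in App-KI, with overlapping groups (-0.07 on the log2 scale, not called). Scarb2, the receptor that carries glucocerebrosidase to lysosomes, had 71.0, 74.1 and 64.9 CPM in Trem2-KO, all below the 76.0, 77.5 and 77.9 CPM in App-KI, but the difference of -0.14 ± 0.07 missed the threshold (adjusted p = 0.357). Tmem106b, a membrane protein tied to frontotemporal dementia risk, averaged 186 ± 7.71 CPM in Trem2-KO and 198 ± 12.1 CPM in App-KI. Npc1, which exports cholesterol, averaged 48.6 CPM in Trem2-KO and 50.3 CPM in App-KI, and Mcoln1, a calcium channel, averaged 113 CPM in Trem2-KO and 111 CPM in App-KI. The groups overlapped for these 3 genes.

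Among glycan and sulfate hydrolases, Hexa, the α subunit of β-hexosaminidase, had 90.6, 100.1 and 82.9 CPM in Trem2-KO, against 142, 137 and 136 CPM in App-KI. That is a log2 fold change of -0.60 ± 0.06 with no overlap (adjusted p = 5.73e-06). Gusb, β-glucuronidase, had 23.8, 27.1 and 24.2 CPM in Trem2-KO, against 44.8, 44.0 and 38.9 CPM in App-KI. It was lower by a similar amount with no overlap (-0.76 ± 0.09, adjusted p = 2.58e-05). Man2b1, lysosomal α-mannosidase, had 80.2, 89.4 and 69.1 CPM in Trem2-KO, against 105, 98.8 and 104 CPM in App-KI. Its groups did not overlap, and the difference was smaller (-0.36 ± 0.08, adjusted p = 0.024); it was no longer called when Trem2-KO replicate 1 or 3, or App-KI replicate 1 or 3, was left out (adjusted p up to 0.127).

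The other 6 hydrolases of this group were not called at 9 months. Gaa, which breaks down lysosomal glycogen, had 407, 408 and 425 CPM in Trem2-KO, all above the 391, 362 and 379 CPM in App-KI, without passing the threshold (0.13 ± 0.05, adjusted p = 0.253). Sgsh, a heparan sulfate sulfatase, had 6.66, 6.47 and 4.93 CPM in Trem2-KO, all above the 4.01, 4.77 and 2.95 CPM in App-KI (0.62 ± 0.19, adjusted p = 0.11). Sgsh is the least abundant of the 31 per length, with 45 to 151 counts a library, and 839 bases of its exons are shared with Card14 on the opposite strand; the strand setting of the counting is not given in the sources used here. Naglu averaged 16.7 ± 1.75 CPM in Trem2-KO and 17.3 ± 2.68 CPM in App-KI. The groups also overlapped for Glb1, Manba and Neu1.

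Grn, which encodes progranulin, a secreted and lysosomal glycoprotein whose loss causes frontotemporal dementia or a storage disease, had 98.4, 109 and 99.2 CPM in Trem2-KO, against 143, 150.2 and 145 CPM in App-KI. The groups were far apart for their spread (-0.51 ± 0.06, adjusted p = 8.97e-06). Creg1, a luminal glycoprotein, had 43.8, 47.7 and 46.7 CPM in Trem2-KO, against 56.3, 55.1 and 55.1 CPM in App-KI. It was lower without overlap (-0.27 ± 0.06, adjusted p = 0.0298), but was not called when Trem2-KO replicate 1 or any of the 3 App-KI libraries at 9 months was left out (adjusted p up to 0.14). Nor was it called without the 3 libraries low in choroid plexus markers (adjusted p = 0.0694). Lgmn, the asparaginyl endopeptidase legumain, had 151, 169 and 145 CPM in Trem2-KO, all below the 179, 178 and 181 CPM in App-KI, without passing edgeR's threshold (-0.21 ± 0.06, adjusted p = 0.0731); DESeq2 called it (adjusted p = 0.0378). Tpp1, a tripeptidyl peptidase, averaged 146 ± 9.99 CPM in Trem2-KO and 145 ± 5.57 CPM in App-KI.

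**Figure D2:**
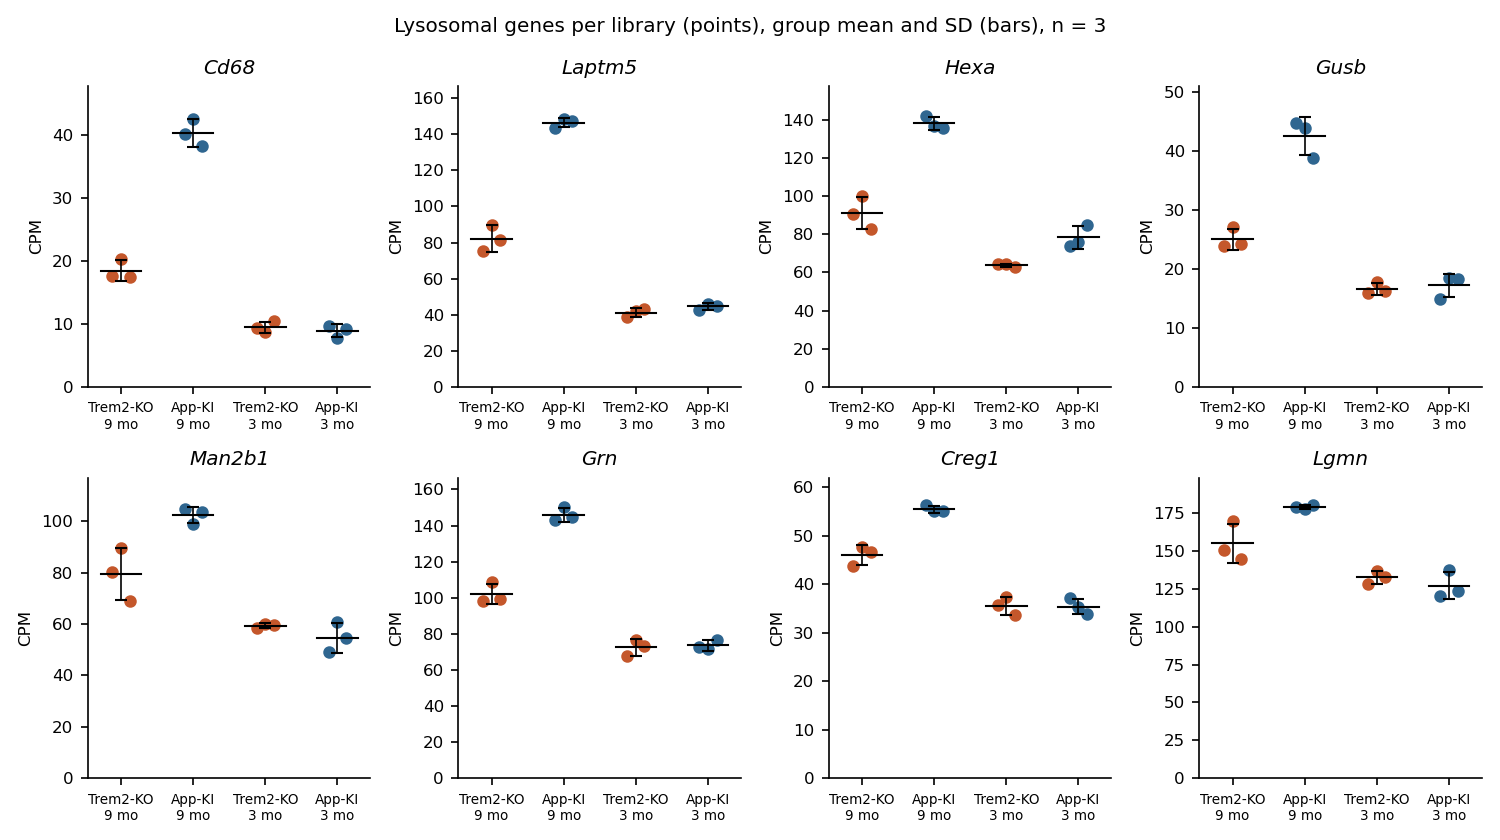
CPM (y axis, from 0) of 8 lysosomal genes in each of the 12 libraries (points), with group means (horizontal lines) and SD (bars, n = 3), for Trem2-KO (orange) and App-KI (blue) at 9 and 3 months. At 9 months every orange point lies below every blue point in all 8 panels, while at 3 months the groups overlap except for Hexa. The 8 are among the 9 of the 31 genes that were lower without overlap at 9 months. Their separation at that age therefore follows from the choice of genes, and 2 other genes of the 31 were higher without overlap.

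None of the 5 lipid-handling genes was called between genotypes at 9 months. Psap, the precursor of the saposins that present sphingolipids to their hydrolases, was the most abundant of the 31 per length, at 601 CPM per kilobase of exon over all groups. It averaged 1774 ± 140 CPM in Trem2-KO and 1695 ± 93.5 CPM in App-KI. Gm2a, the activator that works with hexosaminidase, averaged 108 ± 6.47 CPM in Trem2-KO and 107 ± 5.14 CPM in App-KI, Ppt1, a palmitoyl thioesterase, 176 ± 9.01 CPM in Trem2-KO and 174 ± 5.82 CPM in App-KI, and Asah1, acid ceramidase, 96.7 ± 6.80 CPM in Trem2-KO and 100.5 ± 1.56 CPM in App-KI. Npc2, the luminal carrier that hands cholesterol to Npc1, had 77.0, 78.3 and 63.3 CPM in Trem2-KO and 87.8, 78.1 and 89.9 CPM in App-KI, with a slight overlap (-0.23 ± 0.08, adjusted p = 0.178).

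Proton pump genes showed no call between genotypes. Atp6v1a, the catalytic subunit, averaged 862 ± 34.1 CPM in Trem2-KO and 841 ± 21.5 CPM in App-KI at 9 months, Atp6v0c, the proton-carrying ring subunit, 304 ± 13.2 CPM in Trem2-KO and 295 ± 5.91 CPM in App-KI, and Atp6ap1, an accessory subunit, 454 CPM in Trem2-KO and 439 CPM in App-KI. Tfeb, the transcription factor, stood at 11.02 ± 1.68 CPM in Trem2-KO and 12.1 ± 1.15 CPM in App-KI (log2 fold change -0.13). Per kilobase of exon over all groups, Atp6ap1 (146 CPM), Atp6v1a (142 CPM) and Atp6v0c (96.8 CPM) ranked just below Psap and Lamp1 (175 CPM), and Tfeb (1.95 CPM) just above Sgsh (1.01 CPM).

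Counted without the test, 9 of the 31 genes had every Trem2-KO library below every App-KI library at 9 months and 2 had the reverse, against 9.04% of all tested genes below and 8.28% above. Markers of microglia moved with the genotype in the same libraries. A list of 12 (Csf1r, Cx3cr1, P2ry12, Tmem119, Aif1, Itgam, C1qa, C1qb, C1qc, Fcrls, Spi1 and Ptprc) summed to 567 to 610 CPM in Trem2-KO and 903 to 964 CPM in App-KI at 9 months, with 9 of the 12 called lower, all 12 without overlap and a median of -0.72. Of the marker lists of other cells, 6 border macrophage markers summed to 20.3 to 29.7 CPM in Trem2-KO and 11.5 to 18.6 CPM in App-KI (0 called by edgeR, 1 by DESeq2 and 5 higher at an unadjusted p below 0.05), 10 meningeal fibroblast markers to 309 to 452 CPM in Trem2-KO and 191 to 225 CPM in App-KI (2 called higher), and 7 astrocyte markers to 5093 to 5537 CPM in Trem2-KO and 5835 to 6240 CPM in App-KI. Among the astrocyte markers 2 were called lower, Gfap and Aqp4, and the median was -0.09; Gfap averaged 1514 CPM in Trem2-KO and 1981 CPM in App-KI. The 6 endothelial markers summed to 235 to 248 CPM in Trem2-KO and 197 to 211 CPM in App-KI (1 called higher, Slco1a4). Of the 4 hippocampal neuron markers, Wfs1 was called lower. Both edgeR and DESeq2 called 0 of 8 neuron, 7 oligodendrocyte and 9 choroid plexus markers. At an unadjusted p below 0.05, 2 neuron markers were lower. All 9 choroid plexus markers had positive values, with a median of 1.09. They summed to 78.3 to 3138 CPM in Trem2-KO and 50.8 to 1317 CPM in App-KI. In bulk tissue, fewer cells of a type and less RNA per cell cannot be told apart, and the part of cell numbers in the 7 differences was not tested. No marker of these lists was at 0 in every library.

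**Figure D3:**
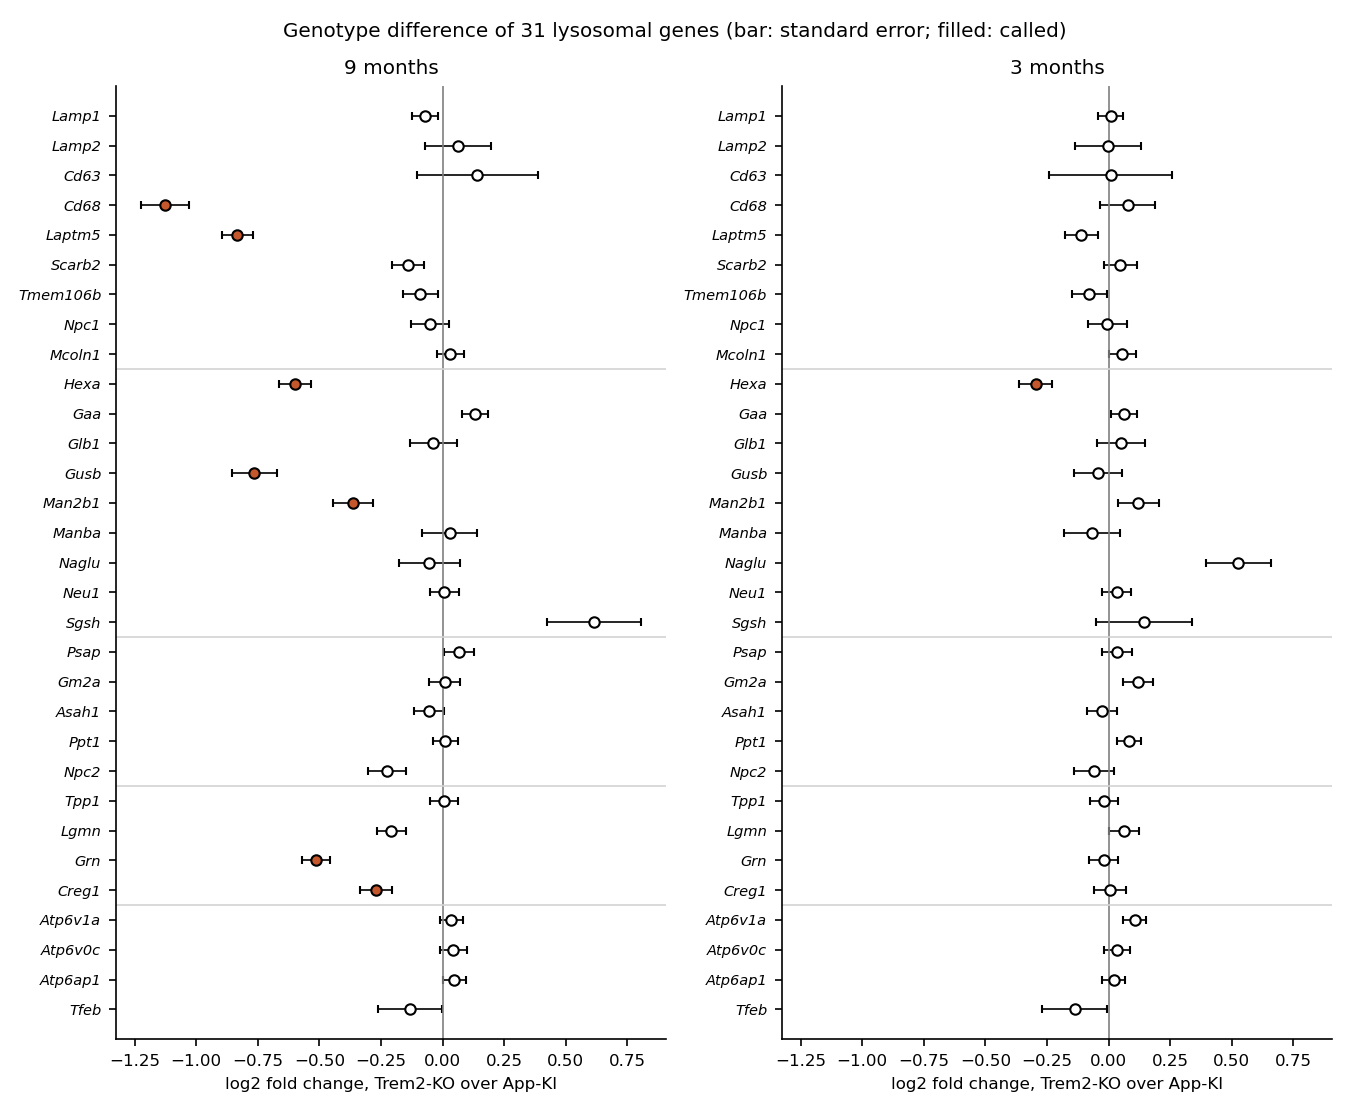
Log2 fold change of Trem2-KO over App-KI (x axis) with its standard error (bars) for each of the 31 genes at 9 months (left) and 3 months (right), grouped by role between grey lines; filled points are called at an adjusted p below 0.05. The 7 filled points at 9 months run from -1.13 for Cd68 to -0.27 for Creg1, and Hexa is the 1 filled point at 3 months.

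At 3 months, Hexa was the 1 lysosomal gene called lower in Trem2-KO and 0 were called higher, where 0.59% of all tested genes were called, 0.423% lower and 0.167% higher. Hexa had 64.3, 64.3 and 62.9 CPM in Trem2-KO, against 73.8, 76.3 and 85.1 CPM in App-KI. The groups did not overlap (-0.30 ± 0.07, adjusted p = 0.0424), but the call was lost in 7 of the 12 fits that leave out 1 library. These were the fits without each Trem2-KO library at 3 months, App-KI replicate 2 or 3 at 3 months, and App-KI replicate 1 or 2 at 9 months (adjusted p up to 0.207). Naglu, which removes N-acetylglucosamine from heparan sulfate, had 10.8, 14.2 and 12.9 CPM in Trem2-KO, all above the 8.28, 9.42 and 8.73 CPM in App-KI. At 0.53 ± 0.13 it missed the threshold (adjusted p = 0.0665), and DESeq2 and a fit on these 2 groups alone called it higher. The other 29 genes gave log2 fold changes between -0.14 and 0.15, and the median of the 31 was 0.02.

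Cd68 illustrates the contrast between ages: at 3 months it had 9.32, 8.66 and 10.4 CPM in Trem2-KO and 9.70, 7.82 and 9.27 CPM in App-KI, with overlapping groups. Laptm5 had 38.6, 42.0 and 43.0 CPM in Trem2-KO and 42.7, 46.2 and 45.0 CPM in App-KI, Gusb 15.9, 17.8 and 16.2 CPM in Trem2-KO and 14.9, 18.5 and 18.2 CPM in App-KI, and Grn 67.5, 76.8 and 73.3 CPM in Trem2-KO and 72.5, 71.5 and 76.9 CPM in App-KI. Each of these 4 genes had overlapping groups at 3 months. Without the test, 1 of the 31 genes lay below without overlap and 3 above, against 8.94% and 8.65% of all tested genes. The 12 microglial markers summed to 381 to 389 CPM in Trem2-KO and 408 to 419 CPM in App-KI at 3 months; edgeR and DESeq2 called 0 of them, and 4 were lower at an unadjusted p below 0.05.

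Between 3 and 9 months, more of the 31 genes rose than fell in each genotype. In Trem2-KO, 13 of the 31 were higher at 9 months and 1 was lower, against 5.68% and 3.02% of all tested genes (8.7% in either direction); 28 of the 31 values were positive and their median was 0.23. In App-KI, 16 were higher and 1 was lower, against 3.95% and 2.71% of all tested genes (6.66% in either direction); 30 values were positive and the median was 0.25. Summed over the 31 genes, levels at 3 months were 5665 to 5980 CPM in Trem2-KO and 5638 to 5814 CPM in App-KI, below the 9-month sums given above. Without the test, 18 genes in Trem2-KO and 20 in App-KI had every 9-month library above every 3-month library, against 13.5% and 11.2% of all tested genes.

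In App-KI the largest rises were those of Cd68 (2.17 ± 0.10, adjusted p = 5.42e-12), Laptm5 (1.72 ± 0.07), Gusb (1.31 ± 0.09) and Grn (0.99 ± 0.06). In Trem2-KO the same 4 genes rose by less, by 0.97 ± 0.11 for Cd68 (adjusted p = 7.98e-06), 0.99 ± 0.07 for Laptm5, 0.59 ± 0.10 for Gusb and 0.49 ± 0.06 for Grn. The difference between the 2 age changes was tested directly and called for these 4 genes and no others of the 31, where 0.266% of all tested genes were called, 0.209% lower and 0.0574% higher. It was -1.20 ± 0.15 for Cd68 (adjusted p = 0.000211), -0.72 ± 0.09 for Laptm5 (0.000319), -0.50 ± 0.08 for Grn (0.00609) and -0.72 ± 0.13 for Gusb (0.0149). Without the 3 libraries low in choroid plexus markers, Cd68 and Laptm5 were called and Grn and Gusb were not (adjusted p = 0.0769 and 0.158). The call for Gusb was also lost without App-KI replicate 1 or 2 at 9 months or Trem2-KO replicate 2 at 3 months. Over the 31 genes, 21 of these differences were negative and the median was -0.07, against 0.01 over all tested genes.

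Microglial markers again moved alongside: 9 of the 12 rose with age in Trem2-KO (median 0.60) and 12 of 12 in App-KI (median 1.17), and the difference between the age changes was called for 6 of them, all lower (median -0.56). Astrocyte markers rose as well, 4 of 7 in Trem2-KO and 3 of 7 in App-KI, and 6 of 10 meningeal fibroblast markers rose in Trem2-KO. In App-KI, 0 of those 10 were called by edgeR or DESeq2, and 0 had an unadjusted p below 0.05. The same held in App-KI for 6 border macrophage and 6 endothelial markers, of which 3 each rose in Trem2-KO. Called falls in Trem2-KO were 2 of 8 neuron, 2 of 4 hippocampal neuron and 2 of 7 oligodendrocyte markers. In App-KI, edgeR called 2 hippocampal neuron markers lower. The part of these cells in the age differences of the lysosomal genes was not tested.

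Hexa and Man2b1 rose in both genotypes as well. Hexa gained 0.52 ± 0.07 in Trem2-KO and 0.82 ± 0.06 in App-KI, and the difference of these changes, -0.30 ± 0.09, was not called (adjusted p = 0.353). Man2b1 at 3 months had 58.3, 60.1 and 59.8 CPM in Trem2-KO and 49.0, 60.7 and 54.5 CPM in App-KI, so that its age change was 0.42 ± 0.08 in Trem2-KO and 0.91 ± 0.08 in App-KI, a difference of -0.48 ± 0.12 (adjusted p = 0.14 by edgeR and 0.0229 by DESeq2). Creg1 at 3 months had 35.8, 37.4 and 33.6 CPM in Trem2-KO and 37.1, 35.3 and 33.9 CPM in App-KI, and rose in Trem2-KO (0.37 ± 0.07) and App-KI (0.65 ± 0.07). Lgmn rose by 0.22 ± 0.06 in Trem2-KO and 0.50 ± 0.06 in App-KI, with 128, 137 and 133 CPM in Trem2-KO and 120.3, 137 and 123 CPM in App-KI at 3 months. The differences of these changes were not called for Creg1 (-0.28 ± 0.09) or Lgmn (-0.27 ± 0.08).

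Naglu followed another order. In App-KI it had 19.99, 17.3 and 14.6 CPM at 9 months, against 8.28, 9.42 and 8.73 CPM at 3 months (0.98 ± 0.13, adjusted p = 2.9e-05). In Trem2-KO it had 15.8, 18.7 and 15.6 CPM at 9 months, against 10.8, 14.2 and 12.9 CPM at 3 months, which edgeR did not call (0.40 ± 0.13, adjusted p = 0.0513) and DESeq2 did (adjusted p = 0.0446). The App-KI libraries at 3 months were the lowest of the 12, and the difference between the age changes, -0.58 ± 0.18, was not called (adjusted p = 0.368).

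Several genes that were not called between genotypes rose with age in both. Tpp1 had 148, 155 and 135 CPM at 9 months, against 118, 124 and 116 CPM at 3 months, in Trem2-KO, and 150, 139 and 147 CPM, against 117, 128 and 118 CPM, in App-KI. Every 9-month library lay above every 3-month library in both genotypes, and the log2 changes were 0.29 ± 0.06 in Trem2-KO and 0.26 ± 0.06 in App-KI (adjusted p = 0.00254 and 0.00477). Npc2 rose by 0.35 ± 0.08 in Trem2-KO and 0.51 ± 0.08 in App-KI, Glb1, the lysosomal β-galactosidase, by 0.33 ± 0.10 in Trem2-KO and 0.41 ± 0.10 in App-KI, and Asah1 by 0.23 ± 0.06 in Trem2-KO and 0.26 ± 0.06 in App-KI. Lamp1 rose by 0.17 ± 0.05 in Trem2-KO and 0.25 ± 0.05 in App-KI, with 438, 445 and 425 CPM in Trem2-KO and 463, 428 and 409 CPM in App-KI at 3 months. Without Trem2-KO replicate 2 at 9 months, the Trem2-KO calls of Lamp1, Glb1, Asah1, Lgmn and Npc2 were all lost, and Lamp1 was also lost without any of 7 other single libraries, Glb1 without any of 4, Lgmn without either of 2 and Asah1 without 1 (adjusted p up to 0.218). In App-KI, Glb1 was not called without replicate 1 or 3 at 9 months, nor Asah1 without replicate 1 at 3 months.

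Gm2a and Ppt1 rose with age in App-KI. Gm2a had 113, 103 and 106 CPM at 9 months, against 90.7, 98.2 and 85.3 CPM at 3 months (0.23 ± 0.06, adjusted p = 0.0275), a call lost when any of 4 single libraries (App-KI replicates 1 and 3 at either age) was left out. Ppt1 had 180.3, 169 and 174 CPM at 9 months, against 156, 145 and 151 CPM at 3 months (0.21 ± 0.05, adjusted p = 0.00987; up to 0.0738, without replicate 1 at 9 months or replicate 2 at 3 months). In Trem2-KO, Ppt1 gave 0.14 ± 0.05 and did not pass (adjusted p = 0.0809), and the differences of the age changes were not called. Glb1 shares 165 bases of exon with Tmppe on the same strand, and exons of Grn, Hexa, Lamp1, Npc1 and Ppt1 overlap a gene on the opposite strand by 68 to 319 bases, so reads there may belong to either gene.

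Atp6v0c was the 1 member of the set that fell with age. It had 303, 291 and 318 CPM at 9 months, against 333, 362 and 385 CPM at 3 months, in Trem2-KO, and 296, 288 and 300 CPM, against 339, 361 and 355 CPM, in App-KI. It fell by 0.25 ± 0.05 on the log2 scale in both genotypes (adjusted p = 0.00627 in Trem2-KO and 0.00431 in App-KI), without overlap; the Trem2-KO call was lost without replicate 3 at 3 months (adjusted p = 0.0614). The table also holds copies named as pseudogenes, Atp6v0c-ps2 and Atp6v0c-ps1, with 2464 and 182 counts over all libraries. Their sequences were not compared, and the handling of multi-gene reads is not given. How far they affect counts of the ring subunit is therefore not known. Atp6v1a, Atp6ap1, Mcoln1, Tmem106b, Gaa, Neu1 and Tfeb were not called with age in either genotype; Tfeb averaged 10.1 ± 1.11 CPM in Trem2-KO and 11.1 ± 1.28 CPM in App-KI at 3 months.

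Psap, Npc1, Scarb2, Manba and Sgsh were also not called with age by edgeR on all libraries. Without the 3 libraries low in choroid plexus markers, Psap, Manba, Naglu, Ppt1 and Sgsh were called higher at 9 months in Trem2-KO and Npc1 in App-KI (adjusted p between 0.0171 and 0.0499), and Asah1 and Gm2a were no longer called in App-KI. That fit does not even out choroid plexus content. The Trem2-KO libraries left at 9 months held 3138 and 2478 CPM of these markers, against 702 to 1329 CPM in Trem2-KO at 3 months. Psap averaged 1583 ± 99.3 CPM in Trem2-KO and 1547 ± 52.5 CPM in App-KI at 3 months, with age differences of 0.16 ± 0.06 in Trem2-KO and 0.13 ± 0.06 in App-KI. Manba, which removes the last mannose of N-glycans, had 21.4, 24.2 and 22.0 CPM at 9 months, against 17.7, 16.9 and 18.2 CPM at 3 months, in Trem2-KO, without overlap and just short of edgeR's threshold (0.36 ± 0.11, adjusted p = 0.0509); DESeq2 called it (adjusted p = 0.0426). Npc1 gave age differences of 0.18 ± 0.08 in Trem2-KO and 0.23 ± 0.08 in App-KI, neither past the threshold. Sgsh had 3.29, 4.04 and 5.16 CPM in Trem2-KO and 3.83, 3.60 and 3.95 CPM in App-KI at 3 months, and its age change in Trem2-KO was 0.52 ± 0.19 (adjusted p = 0.0894).

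**Figure D4:**
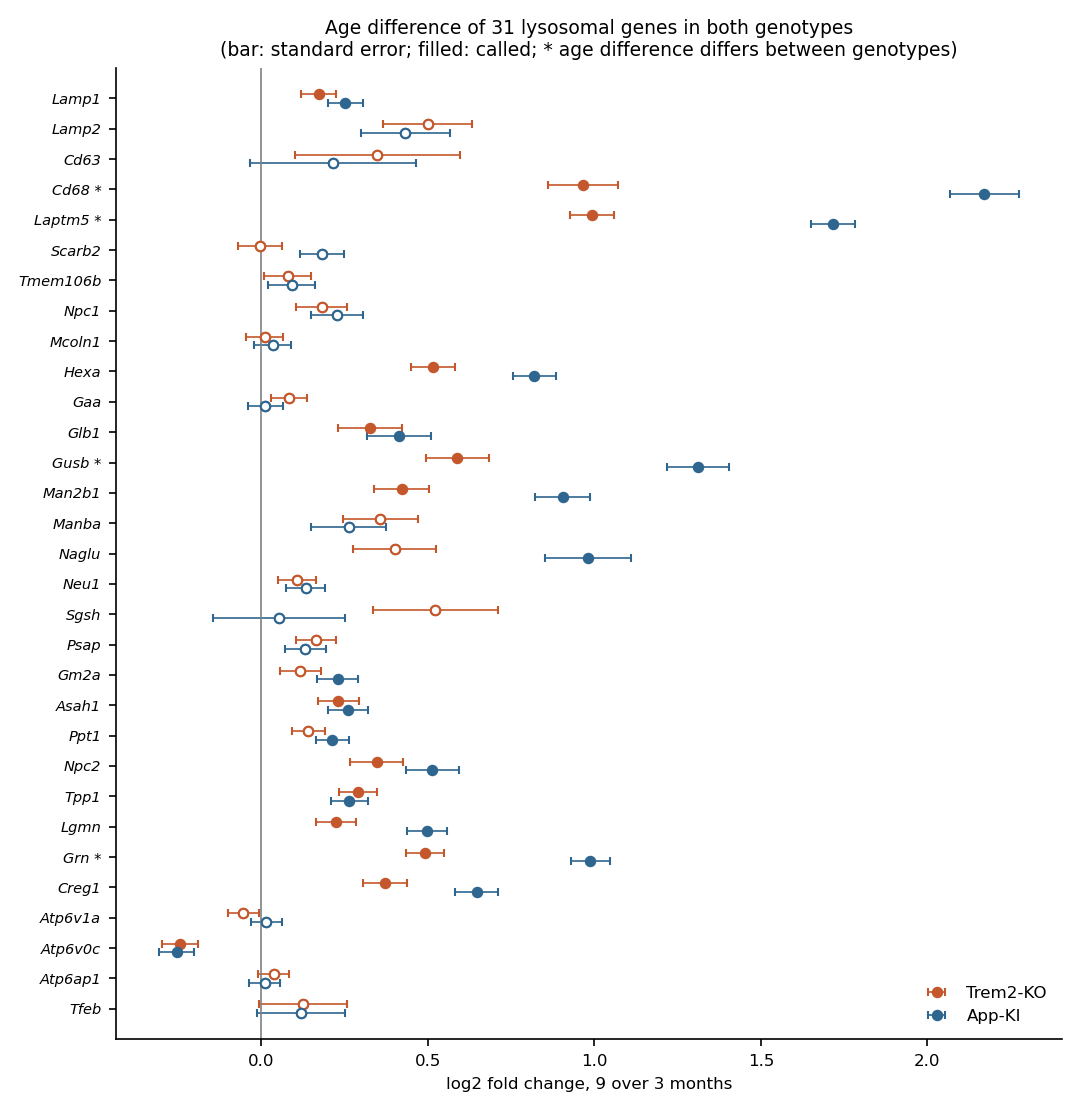
Log2 fold change of 9 over 3 months (x axis) with its standard error (bars) for each of the 31 genes in Trem2-KO (orange) and App-KI (blue); filled points are called and asterisks mark genes whose age change differed between genotypes. Cd68, Laptm5, Gusb and Grn carry asterisks, and Atp6v0c is the gene whose filled points lie left of 0.

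Cd63 and Lamp2 spread widely within groups. Cd63, a tetraspanin of late endosomes and exosomes, had 173, 119 and 87.6 CPM in Trem2-KO and 123, 95.1 and 127 CPM in App-KI at 9 months, and 106, 103 and 90.4 CPM in Trem2-KO and 86.3, 120.3 and 91.7 CPM in App-KI at 3 months. Its lowest library in 3 of the 4 groups was the one low in choroid plexus markers. Lamp2, a glycoprotein of the lysosomal membrane needed for autophagy, had 235, 240.0 and 173 CPM in Trem2-KO and 209, 189 and 223 CPM in App-KI at 9 months, against 157, 159 and 144 CPM in Trem2-KO and 153, 172 and 135 CPM in App-KI at 3 months. Every 9-month library of Lamp2 lay above every 3-month library of its genotype, but edgeR called neither age difference (0.50 ± 0.13 in Trem2-KO and 0.43 ± 0.13 in App-KI; adjusted p = 0.0509 and 0.104). DESeq2 on all 12 libraries called Lamp2 higher at 9 months in Trem2-KO and in App-KI (adjusted p = 0.000161 and 0.00141). Without the 3 libraries low in choroid plexus markers, a choice made after seeing the data, edgeR called Lamp2 in Trem2-KO (0.63, adjusted p = 0.000188) and App-KI (0.49, adjusted p = 0.00567), and Sgsh was called higher in Trem2-KO than in App-KI at 9 months (0.90, adjusted p = 0.0281). The 9-month libraries left in that fit held 3138 and 2478 CPM of choroid plexus markers in Trem2-KO, against 1247 and 1317 CPM in App-KI. The part of choroid plexus tissue in these levels was not tested. Another copy, Cd63-ps, held 369 counts over all libraries.

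**Figure D5:**
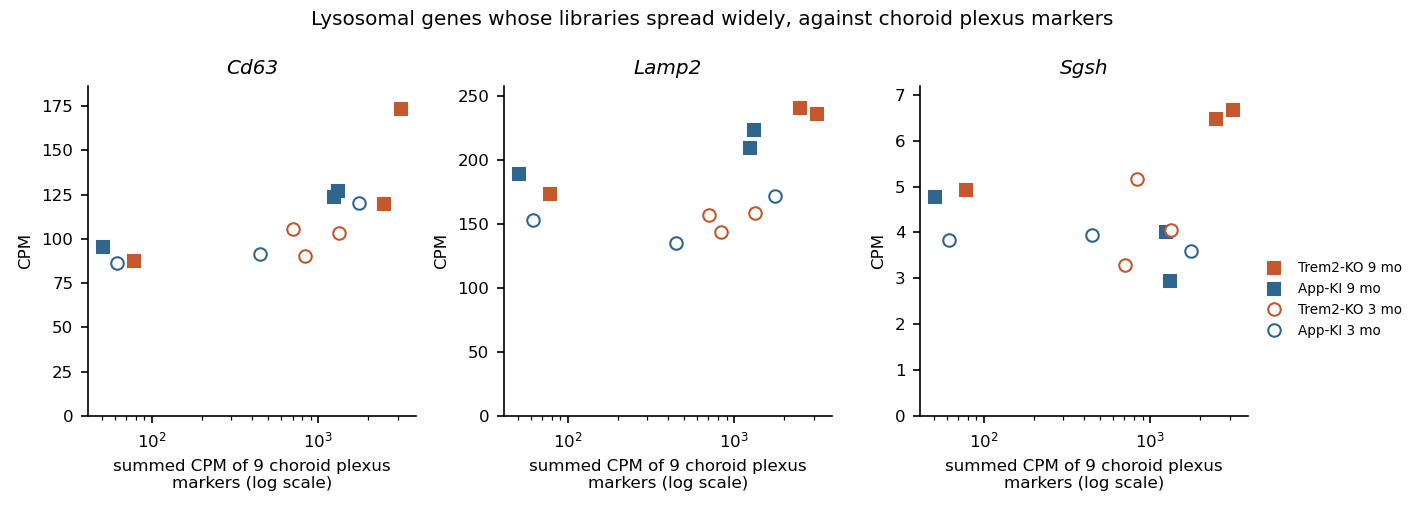
CPM of Cd63, Lamp2 and Sgsh (y axes, from 0) against the summed CPM of 9 choroid plexus markers (x axis, log scale) in the 12 libraries; squares are 9-month and open circles 3-month mice, orange Trem2-KO and blue App-KI. The 3 libraries below 100 CPM of choroid plexus markers stand at the left; the genes were chosen for their spread after their values were seen.

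A wider list of 84 other lysosomal genes, of which 83 were tested, was read from the same fits. At 9 months, edgeR called 1 of the 83 lower in Trem2-KO, Atp6v0d2, where 1.39% of all tested genes were lower, and the list's median was 0.02, against 0.01 over all tested genes. Atp6v0d2, a V-ATPase subunit known from osteoclasts and macrophages, had 0, 3 and 0 counts in Trem2-KO, against 29, 32 and 28 counts in App-KI at 9 months, and at most 2 counts in any 3-month library; DESeq2 gave it no adjusted p at 9 months.

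With age, 7 of the 83 rose and 2 fell in Trem2-KO, and 5 rose and 2 fell in App-KI, with medians of 0.07 in both. Over all tested genes, 5.68% rose and 3.02% fell in Trem2-KO, and 3.95% rose and 2.71% fell in App-KI, so the share of the list called, 10.8% in Trem2-KO and 8.43% in App-KI, was near the 8.7% and 6.66% of all tested genes. Among 23 further hydrolases and activators, 3 rose in Trem2-KO and 2 in App-KI. Scpep1, a serine carboxypeptidase, rose by 0.55 ± 0.09 in Trem2-KO and 0.40 ± 0.09 in App-KI, Lipa, lysosomal acid lipase, rose by 0.39 ± 0.09 in Trem2-KO, and Pla2g15, a lysosomal phospholipase, rose by 0.30 ± 0.07 in App-KI. Among 21 further membrane proteins, 1 rose in each genotype, Cln3 in Trem2-KO (0.40 ± 0.09) and the nucleoside transporter Slc29a3 in App-KI (0.29 ± 0.08). Among 17 further V-ATPase subunits, Tcirg1 rose (0.41 ± 0.10 in Trem2-KO and 0.61 ± 0.10 in App-KI) while Atp6v1f fell by 0.46 ± 0.11 in both genotypes, the direction of Atp6v0c. Of 22 tested regulators of TFEB and mTORC1, Fnip2 (0.40 ± 0.12) and Flcn (0.21 ± 0.06) rose and the calcineurin subunit Ppp3cb (-0.18 ± 0.05) fell in Trem2-KO, and edgeR called 0 in App-KI, where 14 had an unadjusted p below 0.05 (8 higher and 6 lower) and DESeq2 called 3. The most abundant uncalled genes of the 4 lists differed little between genotypes at 9 months: Ids by -0.09 ± 0.05, Sort1 by -0.07 ± 0.06, Atp6v1b2 by 0.03 ± 0.05 and Ppp3ca by 0.10 ± 0.06.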

How the data were processed

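Per the labels' protocols, total RNA from hippocampus was extracted by column and sequencing libraries came from the SMART-Seq mRNA LP kit. The authors deposited raw counts of reads per gene, 1 column per library. Build GRCm39, featureCounts 2.0.3, STAR 2.7.10a, DESeq2 1.36.0 and R 4.2.0 are listed, without roles, in the submitters' processing notes; strand setting, annotation release and handling of multi-gene reads: not given in the sources used here. Symbols came from GENCODE M21 (GRCm38), which matched 52073 of 56980 identifiers and also gave exon lengths and overlaps.

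Low genes were removed with filterByExpr (at least 10 counts, total of at least 15) and libraries scaled by TMM. Tests used the robust quasi-likelihood F-test of edgeR 4.0.16 (R 4.3.3) with a term for each group, over 12 libraries with 8 residual degrees of freedom. Standard errors are the log2 fold change over the square root of F. The pipeline was tested on simulated data. Libraries within a group differed by more than sampling noise (chi-square per degree of freedom 3.04 to 17.0), so no pair of columns agreed within it; p-values measure the spread between mice. The limit of 3 counts covers counting error only. The genotype comparisons at 9 and 3 months contrast different libraries. They share the filter, scaling and estimate of spread of the fit over all 12. The age comparisons and their difference reuse the same libraries. DESeq2 1.42.0, other filters and scalings, and fits without single libraries were alternatives. The genes, the role lists and the marker lists were chosen with earlier results of these data known. Some lysosomal genes outside the set are not reported here. All 31 genes are described; of the wider list, the called genes with the smallest p and the most abundant uncalled gene per role are named, and Lamp2, Cd63 and Sgsh are taken further after their values were seen.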

Additional observations from a re-analysis of the deposited data

Results flagged for a closer look

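The age change differed between genotypes, by a test of the difference itself, for 4 of the 31 lysosomal genes. Cd68 gave -1.20 on the log2 scale, Laptm5 -0.72, Gusb -0.72 and Grn -0.50, each the change between 3 and 9 months in Trem2-KO minus that in App-KI. All 4 rose with age in both genotypes, and the rise was smaller in Trem2-KO.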

How the results depend on the processing

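No paired analysis was possible because the labels give mouse identifiers that are not shared between groups, so replicate numbers pair nothing. No difference of the 31 genes that was called changed sign under any alternative. Of the 7 genes called at 9 months, 5 (Laptm5, Gusb, Hexa, Grn and Cd68) were called in all 18 alternatives. Creg1 and Man2b1 were both lost without Trem2-KO replicate 1, or App-KI replicate 1 or 3, at 9 months. Of the 12 genes with an unadjusted p below 0.05, no filter on low counts added 3 calls. DESeq2 added 1, as did leaving out Trem2-KO replicate 2 or 3 at 9 months. Without the 3 libraries low in choroid plexus markers, Creg1 was lost and Sgsh was called higher (adjusted p = 0.0694 and 0.0281). That fit leaves the choroid plexus sums uneven, as given above. Calls among the 31 at 3 months numbered 1, or 2 with no filter on low counts, with the 2 groups alone or with DESeq2, and 0 to 1 when single libraries were left out. Age calls in Trem2-KO numbered 14, against 18 with no filter, 17 with DESeq2 and 11 with the 2 groups alone. They numbered 20 without the 3 libraries low in choroid plexus markers and 9 to 19 without single libraries. The lowest count, 9, came without Trem2-KO replicate 2 at 9 months or replicate 3 at 3 months. Calls over all tested genes shifted the same way in these fits. They were 1088 higher and 579 lower in the main fit, and 829 and 348 with the 2 groups alone. They were 1583 and 665 without the 3 libraries, 704 and 228 without that replicate 2, and 583 and 186 without that replicate 3. Age calls in App-KI numbered 17, and 14 to 18 over the alternatives. Calls for the difference of the age changes numbered 4, and 2 without the 3 libraries low in choroid plexus markers. Of the 9 genes with an unadjusted p below 0.05, DESeq2 and no filter on low counts each added 1 call. So did leaving out Trem2-KO replicate 2 at 9 months or App-KI replicate 2 at 3 months. The call for Gusb was lost without any of 3 single libraries, as given above. Among the 83 other lysosomal genes, calls at 9 months numbered 1, or 2 with no filter or without the 3 libraries, and 1 to 2 without single libraries; at 3 months they numbered 0 (2 with no filter). Their age calls in Trem2-KO numbered 9, against 19 with no filter, 4 with the 2 groups alone, 19 without the 3 libraries and 3 to 16 without single libraries. In App-KI they numbered 7, against 15 with no filter, 14 with the 2 groups alone, 12 with DESeq2 and 3 to 13 without single libraries. Over all tested genes, age calls in App-KI were 757 higher and 519 lower. They were 916 and 741 with no filter, where 38139 genes were tested, and 827 and 669 with the 2 groups alone. Their calls for the difference of the age changes numbered 0, or 1 with no filter. The causes of these shifts were not tested. With 3 mice a group, the differences of Cd63 and Sgsh, the genes that spread most between libraries, are least precise.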
